A study of Danio rerio with 8 samples.

Results

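The cytochrome P450 genes of the zebrafish, other than the retinoic acid-degrading cyp26a1, cyp26b1 and cyp26c1, were described in RNA-seq of embryos that lack Hdac1 or Cyp26 function. All genes whose symbol starts with cyp and a number, in upper or lower case, were taken. The rule found 77 of the 31172 genes listed, with the same symbols in the table for whole embryos and in the table for sorted cells. There were 8 libraries, 1 per condition, and 4 comparisons. In whole AB/TU embryos at 48 hours post-fertilization (hpf), crg mutants, which carry an ENU-induced splice donor mutation in hdac1, were set against WT siblings, and Cyp26-deficient embryos against a WT library of their own. In nkx2.5:ZsYellow+ cells sorted from embryos labelled 28 hpf, Hdac1-depleted cells and Cyp26-deficient cells each had a WT library beside them. The study's methods list morpholinos against hdac1, cyp26a1 and cyp26c1 for these depletions, with a p53 morpholino in all injections, and the text also gives a later stage for the sorted cells. The text does not say directly how the Cyp26-deficient whole embryos were made.

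Cytochrome P450 enzymes bind haem and use electrons from a partner protein to insert an oxygen atom into their substrate. Families 1, 2 and 3 mostly oxidize foreign compounds, and many of their fish genes lie in tandem arrays that arose by duplication. Family 4 acts on fatty acids, families 7, 8, 39 and 46 on cholesterol and bile acids, families 11, 17, 19 and 21 on steroid hormones, family 24 on vitamin D, and family 27 on bile acid precursors, vitamin D and retinoids, while family 51 is part of sterol synthesis and family 20 has no settled substrate. In the embryo the steroid genes mark the interrenal gland, the fish counterpart of the adrenal cortex, and the brain.

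Counts assigned to genes summed to between 11070144 and 30257543 in the whole-embryo libraries and to between 13133598 and 19338815 in the sorted-cell libraries. Levels below are counts divided by a size factor for each library, called normalized counts, and are compared within a table. Numbers given as counts alone are before this division. The size factors were 0.708 in crg mutants, 0.559 in WT siblings, 1.98 in Cyp26-deficient embryos and 1.29 in their WT control. In sorted cells they were 1.13 in Hdac1-depleted cells, 1.21 in their WT cells, 0.937 in Cyp26-deficient cells and 0.81 in their WT cells. Since each condition had 1 library, no difference has a replicate check and no p-value can be given. A gene is called higher or lower here when its log2 fold change, taken with 1 added to each normalized count, passed 1 in size and its mean over the table's 4 libraries was at least 10 normalized counts. This mean includes the libraries compared, so a gene with few counts could pass through the library in which it was high. Folds and ratios given without a log are quotients of normalized counts with nothing added, and the 95% intervals given with them are exact (Clopper-Pearson) and hold counting error alone. Exon 7 of hdac1 held 2.45% of the counts on exons 6, 7 and 8 in crg mutants, against 24.1% in WT siblings. In such bulk samples, fewer cells of a type and less RNA per cell cannot be told apart. Markers of other cell types differed between the libraries. They are counted as gene entries, and the 10 erythrocyte symbols listed matched 11 of these. In crg mutants all 11 lens markers, 6 of 11 of cardiomyocytes, 3 of 4 of intestine and 3 of 11 of erythrocytes were lower. So were 2 of 8 of melanophores and 1 of 10 of skeletal muscle, while 1 erythrocyte marker was higher. In Cyp26-deficient whole embryos 8 of 11 erythrocyte markers were lower. After Hdac1 depletion 9 of 11 erythrocyte and 6 of 8 lens markers were lower. Of the 8 melanophore markers 4 were higher and 1 lower there. In Cyp26-deficient sorted cells 6 of 10 skeletal muscle, 3 of 11 erythrocyte, 3 of 8 melanophore and 2 of 11 cardiomyocyte markers were higher. Of the 8 lens markers 3 were higher and 1 lower in these cells. Several of these depended on the WT library. With the WT control of the other comparison the median log2 fold change of lens markers was 1.35 after Hdac1 depletion and -2.41 in Cyp26-deficient cells, where their own controls gave -2.25 and 0.83. In the same way skeletal muscle markers in Cyp26-deficient cells were at -0.25 in place of 1.06, and erythrocyte markers there at -0.31 in place of 0.12. In crg mutants cardiomyocyte markers were at 0.007 in place of -1.04 and erythrocyte markers at 0.12 in place of -0.63. Intestine markers there were at -0.26 in place of -1.07. Their part in the P450 values was not tested, also where their sums are given beside single genes.

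Of the 77 P450 genes, 62 reached a mean of 10 normalized counts in whole embryos and 56 in sorted cells, with 52 doing so in both. The 10 that passed in whole embryos alone included CYP11A1 (1 of 2), cyp17a2 and cyp21a2 of steroid synthesis, cyp8b1 of bile acid synthesis and CYP27B1, the homologue of the enzyme that activates vitamin D in mammals. The others were cyp2k17, cyp2p7, cyp2p8, cyp2x10.2 and cyp4v8. The 4 that passed in sorted cells alone were cyp2ad2, cyp2ad6, cyp2k18 and cyp39a1. The 11 genes under a mean of 10 normalized counts in both tables were 3 CYP2W1 copies, CYP46A1 (5 of 5), cyp11a1, cyp19a1a, cyp2k22, cyp2k6, cyp2n13, cyp4v7 and cyp7a1a. In at least 1 comparison 47 genes were called, and 19 genes that passed in a table were called in none. The share of all genes called in at least 1 comparison was not computed, so these counts describe no trait of P450 genes.

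Per kilobase of exon, the highest P450 level of whole embryos was that of cyp2y3, a family 2 gene, at 526.0 to 1074 normalized counts per kb over the 4 libraries. It was followed by cyp2aa8, cyp20a1, cyp2aa3, cyp2aa9 and cyp51, and each of these ranges overlapped the next. In sorted cells cyp24a1, the vitamin D-inactivating 24-hydroxylase, stood first at 590.7 to 1335 normalized counts per kb, and its range did not overlap that of cyp27c1, the next gene, at 135.5 to 573.1. The vitamin A-desaturating cyp27c1, cyp2aa12, cyp20a1 and cyp2ad3 followed, and the ranges of these 4 genes overlapped.

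In crg mutants, 6 of the 62 P450 genes tested were higher and 11 were lower, shares of 9.68% and 17.7%. Of all 19888 genes tested in whole embryos, 6.43% were higher and 7.78% lower. The median log2 fold change was -0.06 for the P450 genes and 0.01 for all genes. In Cyp26-deficient whole embryos, 12 of the 62 P450 genes (19.4%) were higher and 2 (3.23%) lower, beside 3.5% and 2.59% of all genes. Here the P450 median was 0.36, against -0.03 for all genes. Of the higher genes, cyp17a2, cyp3c1l2 and cyp4f3 reached the mean of 10 only through the Cyp26-deficient library. In crg mutants the lower genes cyp8b1 and cyp2k17 reached it only through WT siblings.

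In Hdac1-depleted sorted cells, 10 of the 56 P450 genes tested were higher and 6 lower, or 17.9% and 10.7%. Among all 20033 genes tested in sorted cells, 12.4% were higher and 12.7% lower, so these shares lay near those of all genes. In Cyp26-deficient sorted cells, 12 P450 genes (21.4%) were higher and 10 (17.9%) lower, beside 8.81% and 7.6% of all genes. The higher gene cyp2u1 reached the mean of 10 only through the Hdac1-depleted library, and cyp1a and cyp27a1.4 only through the Cyp26-deficient one. The lower genes cyp3a65 after Hdac1 depletion, and cyp2p9 and cyp39a1 in Cyp26 deficiency, reached it only through their own WT control. The P450 median of Hdac1-depleted cells was 0.10 beside an all-gene median of -0.01, and that of Cyp26-deficient cells was -0.07 beside -0.004. Over the 4 comparisons, called differences went in both directions within families 2, 3, 4, 17, 21, 24 and 46.

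**Figure D1:**
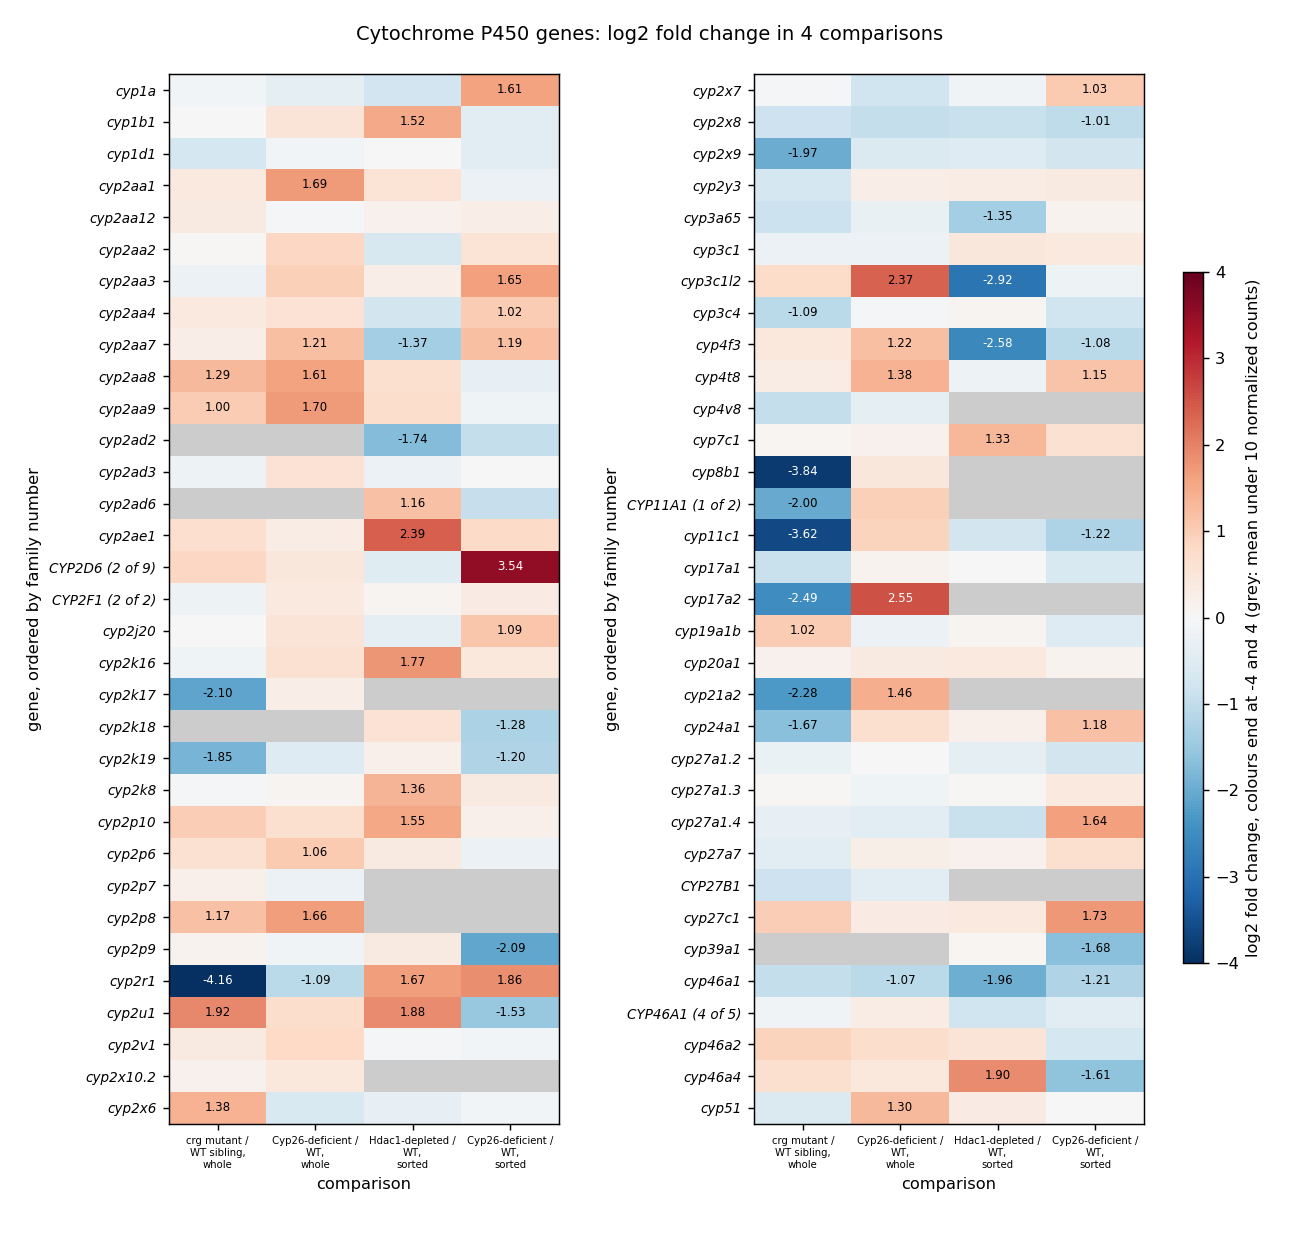
Log2 fold change of each P450 gene that passed in either table (rows, ordered by family number) in the 4 comparisons (columns). Numbers are printed where a gene was more than 2-fold apart, and grey cells mark a mean under 10 normalized counts in that table. The crg column is blue at cyp2r1, cyp8b1, CYP11A1 (1 of 2), cyp11c1, cyp17a2 and cyp21a2, with cyp2r1 lowest at -4.16.

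The pairs of WT libraries also differed among themselves. In whole embryos, the WT control for Cyp26 was more than 2-fold above the WT siblings of crg mutants at 9 of the 62 P450 genes and below them at 19, beside 14.9% and 10.1% of all genes. The P450 median of this difference was -0.51. Among the largest, cyp19a1b, the aromatase of the fish brain, had 131.7 normalized counts in the WT control for Cyp26 against 7.16 in WT siblings, and cyp27a1.3 had 4.65 against 69.8. In sorted cells, 5 of the 56 genes were higher and 6 lower in the WT control for Hdac1 than in the WT control for Cyp26, against 8.4% and 6.85% of all genes. These controls belong to different pairs of libraries, so that a difference of the pairs and one of the embryos cannot be told apart. Calls of cyp genes below are therefore given with their value against the other WT library of the table, called the other WT control.

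Against the other WT control, 4 of the 6 higher and 9 of the 11 lower genes of crg mutants kept their call. In Cyp26-deficient whole embryos 7 of 12 and 2 of 2 did. In Hdac1-depleted cells 6 of 10 higher and 4 of 6 lower genes kept their call, and in Cyp26-deficient cells 4 of 12 and 3 of 10. Both intervals excluded no change for 3 higher and 4 lower genes in crg mutants and 7 and 2 in Cyp26-deficient embryos. For Hdac1-depleted cells these were 5 and 3, and for Cyp26-deficient cells 4 and 2. Both ratios share the library of the deficiency, and the share of all called genes that kept their call was not computed.

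**Figure D2:**
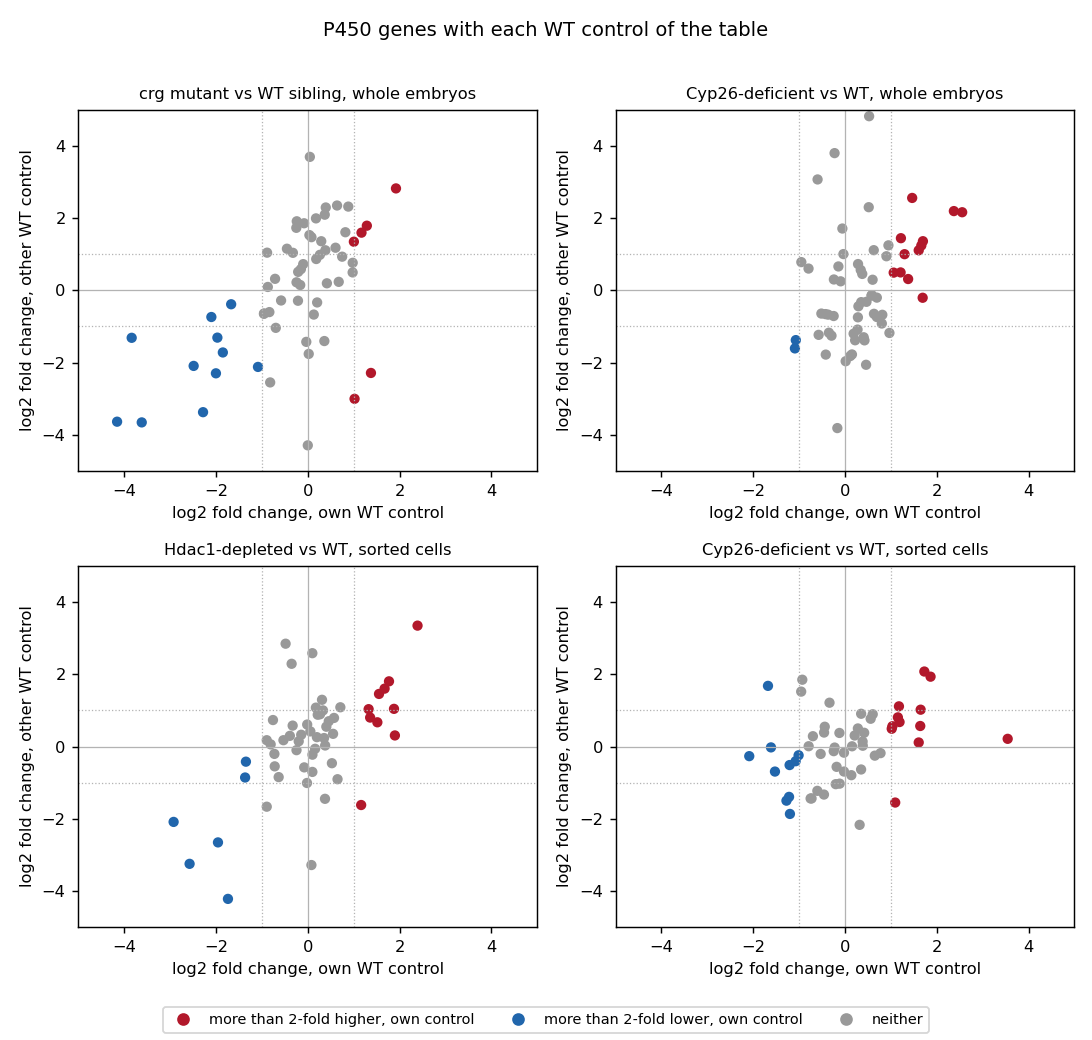
Log2 fold change of each P450 gene tested against its own WT control (horizontal axis) and with the other WT library of the table (vertical axis), in 4 panels. Red and blue points were more than 2-fold higher or lower against their own control. In whole embryos the points spread widely along the vertical axis, and 9 of the 11 genes lower in crg mutants are also lower with the other control.

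Most P450 genes of steroid hormone synthesis had few counts in crg mutants, and most of these had few in WT siblings as well. The gene cyp17a1, given below, had 380 counts in crg mutants. The homologue CYP11A1 (1 of 2) of the side chain cleavage enzyme, which makes pregnenolone from cholesterol, had 2 counts in crg mutants against 8 in WT siblings, and 70 in Cyp26-deficient embryos against 23 in their WT control. The 17-hydroxylase gene cyp17a2, on chromosome 23 of Zv9 from 45948521 to 45985841, had 1 count in crg mutants against 7 in WT siblings, and 118 in Cyp26-deficient embryos against 12 in WT embryos. The 21-hydroxylase gene cyp21a2, on chromosome 16 from 18626478 to 18639394, had 1 count in crg mutants against 6 in WT siblings, and 135 in Cyp26-deficient embryos against 31 in WT embryos. The crg mutants thus had the lowest count of the 4 libraries for each of these genes.

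The 11-hydroxylase cyp11c1, which makes cortisol and 11-oxygenated androgens in zebrafish, had 1 count in crg mutants against 16 in WT siblings. Its ratio was 0.0493 (95% interval 0.00118 to 0.317), and it was 0.197 (0.0204 to 0.989) for CYP11A1 (1 of 2) and 0.113 (0.0025 to 0.877) for cyp17a2. For cyp21a2 the ratio of 0.132 had an interval of 0.00286 to 1.08, which includes no change. With the other WT control all 4 remained lower, with log2 fold changes of -2.09 to -3.66, and there the interval of cyp17a2 reached 1.03.

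The remaining steroid genes went different ways. The gene cyp17a1, for the enzyme that also forms androgens, had 536.7 normalized counts in crg mutants against 993.4 in WT siblings, a ratio of 0.54 (0.473 to 0.617). The other WT control had 260.4, which gave a log2 fold change of 1.04. The aromatase gene cyp19a1b counted as higher in crg mutants on 11 counts against 4 in WT siblings. The interval of its ratio of 2.17, 0.643 to 9.34, includes no change, and its log2 fold change was -3.005 with the other WT control. The genes cyp11a1 and cyp19a1a were under the mean of 10, with 3 and 1 counts in crg mutants against 1 of each in WT siblings.

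In Cyp26-deficient whole embryos the genes cyp17a2 and cyp21a2 were higher. The level of cyp17a2 was 59.5 normalized counts against 9.30, a fold of 6.39 (3.53 to 12.7). For cyp21a2 it was 68.0 against 24.02, a fold of 2.83 (1.90 to 4.33). Both stayed higher with the other WT control, at log2 fold changes of 2.16 and 2.56. The genes CYP11A1 (1 of 2), with a fold of 1.98 (1.22 to 3.32), and cyp11c1, with 1.90 (1.303 to 2.82), fell short of the limit. The value of cyp17a1 was 1.11 (0.969 to 1.27), within counting error, and that of the aromatase cyp19a1b lay below, at 112.4 normalized counts in Cyp26-deficient embryos against 131.7 in WT embryos. Both depended on the control. The other WT control had 993.4 normalized counts of cyp17a1, above the 289.2 of Cyp26-deficient embryos, and 7.16 of cyp19a1b, below their 112.4. The low cyp11a1 had 16.6 normalized counts in Cyp26-deficient embryos against 9.30 in WT embryos, and cyp19a1a had 1.51 against 1.55.

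Genes outside the P450s that act in the same steps were taken from a list. The cholesterol carrier star, which feeds steroid synthesis, had 17 counts in crg mutants against 98 in WT siblings (log2 fold change -2.82), and 532 in Cyp26-deficient embryos against 159 in WT embryos (1.11). With the other WT control these values were -2.31 and 0.61. Of the 11 genes of the list tested in whole embryos, 1 was higher and 2 lower in crg mutants (median -0.28) and 1 was higher and 0 lower in Cyp26 deficiency (median 0.19, and -0.02 with the other WT control). The lower genes were star and hsd11b2, which inactivates cortisol, the second at -1.59 and at -0.67 with the other WT control. The higher gene of crg mutants, nr5a1b, had 1 count against 0, so that its call rests on 1 count. It reached the mean of 10 normalized counts only through the Cyp26 pair. The receptor mc2r was nearly absent, with at most 6 counts in a whole-embryo library. The ferredoxin fdx1b passes electrons to the mitochondrial steroid P450s in zebrafish. It had 10 counts in crg mutants against 9 in WT siblings, before division by size factors of 0.708 and 0.559. In Cyp26-deficient embryos it had 67 counts against 14 in WT embryos (1.55). In sorted cells 1 gene of the steroid list was higher and 1 lower of 9 after Hdac1 depletion (median -0.12), and 0 higher and 1 lower in Cyp26 deficiency (-0.43).

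**Figure D3:**
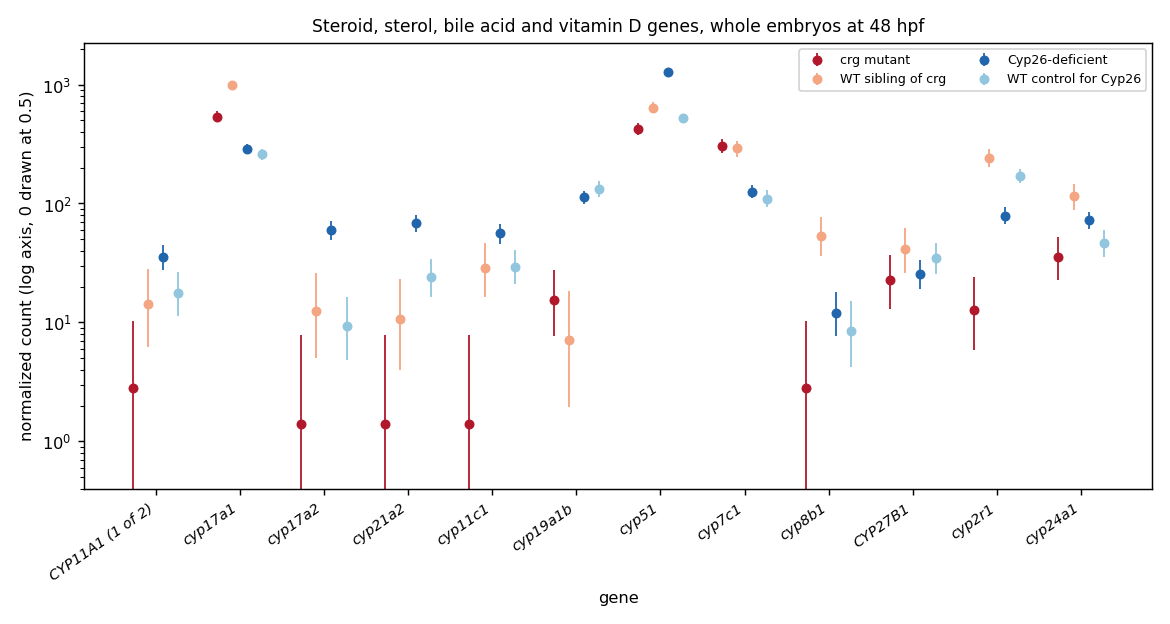
Normalized counts on a log axis of 12 P450 genes in the 4 whole-embryo libraries, with 95% exact Poisson intervals of each count as bars and each deficiency left of its WT control. CYP11A1 (1 of 2), cyp17a2, cyp21a2, cyp11c1 and cyp8b1 lie under 3 normalized counts in crg mutants, and cyp17a2 reaches 59.5 in Cyp26-deficient embryos.

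Steroid genes of the sorted cells were mostly low, but cyp11c1 and cyp19a1b were not. The gene cyp11c1 had 114.5 normalized counts in Hdac1-depleted and 189.3 in their WT cells, and 71.5 in Cyp26-deficient and 167.8 in their WT cells. Both deficiencies were under both WT libraries. The ratio was 0.605 (0.483 to 0.753) after Hdac1 depletion, under the limit for a call, and 0.426 (0.313 to 0.575) in Cyp26 deficiency, where the other WT control gave a log2 fold change of -1.39. The brain aromatase cyp19a1b ranged from 135.5 to 196.2 normalized counts over the sorted libraries and was called in neither comparison.

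The sterol 14-demethylase cyp51, on chromosome 19 from 577362 to 595879, acts on lanosterol in cholesterol synthesis. In whole embryos it had 1277.7 normalized counts in Cyp26-deficient embryos against 519.2 in WT embryos, and 426.6 in crg mutants against 639.0 in WT siblings. Cyp26-deficient embryos thus had the highest level and crg mutants the lowest. The fold in Cyp26 deficiency was 2.46 (2.26 to 2.68), with all 10 exons higher, and against the other WT control its log2 fold change of 0.998 lay just under the limit. In crg mutants the ratio was 0.668 (0.571 to 0.78). In sorted cells it was 1.26 (1.01 to 1.57) after Hdac1 depletion and 0.984 (0.696 to 1.395) in Cyp26 deficiency.

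Of 21 other genes of cholesterol synthesis, 4 were higher and 0 lower in Cyp26-deficient whole embryos, with a median of 0.54 beside -0.03 for all genes. These were lss (1.60), which makes the substrate of cyp51, the rate-limiting hmgcra (1.27), FDFT1 (1.05) and nsdhl (1.04), each of which was under 1 with the other WT control, at 0.53, 0.96, 0.70 and -0.03. In crg mutants 1 was higher and 5 lower, with a median of -0.31 that turned to 0.18 with the other WT control. The lower genes were hmgcs1, hmgcra, tm7sf2, msmo1 and hsd17b7, at log2 fold changes of -1.03 to -1.39, and the higher one was PMVK (1.06). In sorted cells 0 were higher and 2 lower of 20 after Hdac1 depletion (median -0.17), and 2 higher and 1 lower in Cyp26 deficiency (0.31), and both medians turned with the other control, to 0.15 and -0.16.

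Bile acid genes had few counts. The 12-hydroxylase cyp8b1, a gene of 1 exon that sets the kind of bile acid made, had 2 counts in crg mutants, 30 in WT siblings, 24 in Cyp26-deficient embryos and 11 in their WT control. Its ratio in crg mutants was 0.0526 (0.00609 to 0.207). Against the other WT control its log2 value was -1.32, and that interval of the ratio, 0.0357 to 1.52, includes no change. The rate-limiting cyp7a1a, under the mean of 10, had 0 counts in crg mutants against 6 in WT siblings and 11 in the other WT control. Setting the crg library at 3 counts makes it 2.53-fold lower than WT siblings, which is not a limit of counting error.

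Hepatocyte markers summed to 122748 normalized counts in crg mutants against 182886 in WT siblings, with 0 higher and 2 lower of 14 tested and a median of -0.52. The liver fatty acid binding protein fabp10a had 5 counts in crg mutants against 34 in WT siblings and 7 in the other WT control. For apoa2 there were 43987 counts in crg mutants against 46525 in WT siblings. The size factors that divide these counts were 0.708, 0.559 and 1.29 for crg mutants, WT siblings and the other WT control. The bile acid receptor nr1h4 had 2 counts in crg mutants against 23 in WT siblings and 10 in the other WT control, with which the hepatocyte median was 0.08. Whether the values of cyp8b1 and cyp7a1a follow the amount of liver was not tested.

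The family 7 gene cyp7c1, on chromosome 2 from 42236837 to 42253253, showed no such difference in crg mutants, with 306.5 normalized counts against 290.0 in WT siblings, while the other WT control had 110.0. In sorted cells it had 256.5 after Hdac1 depletion against 101.7, and 189.9 in Cyp26 deficiency against 124.6. The Hdac1-depleted level was above the other 3 libraries, with a fold of 2.52 (2.04 to 3.14) and all 6 exons higher, and the call held with the other WT control (1.04). The Cyp26 fold of 1.52 (1.19 to 1.96) was under the limit.

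The family 46 genes, relatives of the mammalian enzyme that clears cholesterol from neurons, lie together on chromosome 20 between 5148288 and 5331030. The gene cyp46a1 was lower in 3 comparisons. It had 18.6 normalized counts in Cyp26-deficient whole embryos against 40.3, a ratio of 0.463 (0.295 to 0.719), 7.99 in Hdac1-depleted cells against 33.9, a ratio of 0.236 (0.101 to 0.492), and 23.5 in Cyp26-deficient cells against 55.5, a ratio of 0.423 (0.242 to 0.719). In crg mutants it had 25.4 against 50.1. Each deficiency thus lay under its own WT control, and the calls in Cyp26-deficient whole embryos (-1.38) and Hdac1-depleted cells (-2.65) held with the other control, while that in Cyp26-deficient cells (-0.51) did not.

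Its neighbour cyp46a4 had 67.4 normalized counts after Hdac1 depletion against 17.4, a fold of 3.88 (2.37 to 6.63), and 17.1 in Cyp26-deficient cells against 54.3, a ratio of 0.314 (0.166 to 0.568). Since the WT controls themselves differed, at 17.4 and 54.3, the 2 calls did not hold with the other control, at 0.31 and -0.02. The genes cyp46a2 and CYP46A1 (4 of 5) were called in none. Neuron markers, of which 0 were higher and 2 lower of 6 after Hdac1 depletion, summed to 5134 normalized counts there against 8428. In Cyp26-deficient cells neuron markers summed to 7809 against 12682, with 1 higher and 0 lower. The WT control for Hdac1 had 8428, with which the median log2 fold change of these markers was 0.23 in place of -0.31. Their part in the values of family 46 was not tested.

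The gene cyp39a1, whose mammalian counterpart acts on oxysterols, was lower in Cyp26-deficient cells, at 12.8 normalized counts against 43.2, but its log2 fold change was 1.68 with the other WT control. Of the 4 cyp27a genes on chromosome 9, relatives of the mammalian sterol 27-hydroxylase, cyp27a1.4 was higher in Cyp26-deficient cells on 20 against 5 counts, a fold of 3.46 (1.26 to 11.8), and 0.57 on the log2 scale with the other control. No cyp27a gene was called in whole embryos, and their summed level in the WT siblings, 331.1, was above the 87.6 of the WT control for Cyp26.

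Of the vitamin D genes, cyp2r1 was lower in both whole-embryo comparisons and higher in both sorted-cell comparisons. The 25-hydroxylase cyp2r1, the first step of vitamin D activation, spans chromosome 7 from 28581189 to 28823102. In whole embryos it had 9 counts in crg mutants against 136 in WT siblings, and 157 in Cyp26-deficient embryos against 219 in their WT control. As normalized counts these are 12.7 against 243.4 and 79.1 against 169.7, so both deficiencies lay under both WT libraries. The ratios were 0.0522 (0.0234 to 0.102) in crg mutants, the lowest log2 fold change of any P450 gene tested there (-4.16), and 0.466 (0.377 to 0.575) in Cyp26 deficiency. Against the other control the log2 values were -3.64 and -1.61.

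In sorted cells cyp2r1 was higher in both deficiencies. It had 53 counts after Hdac1 depletion against 17 in WT cells, a fold of 3.35 (1.91 to 6.16), and 53 in Cyp26-deficient cells against 12 in WT cells, a fold of 3.82 (2.01 to 7.85). Both calls held with the other WT control, at 1.60 and 1.93. Of the 53 counts, 37 lay on the last of the 17 exon entries listed in Cyp26-deficient cells, while in Hdac1-depleted cells the exon with most held 19. The gene spans calca, on the opposite strand, which had 5 counts against 14 after Hdac1 depletion and 7 against 1 in Cyp26 deficiency.

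The 1-hydroxylase homologue CYP27B1 had 22.6 normalized counts in crg mutants against 41.2 in WT siblings. It had 25.7 in Cyp26-deficient embryos against 34.9 in WT embryos, and both intervals include no change. The inactivating cyp24a1, on chromosome 6 from 55692362 to 55705674, had 35.3 normalized counts in crg mutants against 114.6 in WT siblings, a ratio of 0.308 (0.186 to 0.496), but -0.39 on the log2 scale with the other WT control, which had 46.5. In Cyp26-deficient embryos it had 72.6, a fold of 1.56 (1.15 to 2.15) with their own control, but lay under the 114.6 of WT siblings. The vitamin D receptor vdrb had 205 counts in crg mutants against 84 in WT siblings (log2 0.94).

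In sorted cells cyp24a1 had 2824 normalized counts in Cyp26 deficiency against 1249.98 in WT cells, and 1497 after Hdac1 depletion against 1305. The Cyp26-deficient library was above the other 3, which lay close together. Its fold was 2.26 (2.10 to 2.43), with all 12 exons higher, and the log2 fold change was 1.11 with the other WT control. The Hdac1 fold was 1.15 (1.07 to 1.23). The Cyp26-deficient level of vdrb was 0.15 above WT on the log2 scale.

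The vitamin A enzyme cyp27c1, which turns vitamin A1 into A2 in zebrafish, lies on chromosome 6 from 8144749 to 8158549. In sorted cells it had 1503 normalized counts in Cyp26 deficiency against 452.9, and 462.3 after Hdac1 depletion against 355.5. The Cyp26-deficient level again stood alone above 3 similar libraries, with a fold of 3.32 (2.96 to 3.73), all 11 exons higher and a log2 fold change of 2.08 with the other WT control. After Hdac1 depletion the fold was 1.3 (1.14 to 1.48). In whole embryos it had 251.4 in crg mutants against 127.1, a fold of 1.98 (1.49 to 2.64) just under the limit, and 187.9 in Cyp26-deficient embryos against 148.0, a fold of 1.27 (1.06 to 1.52).

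The cyp27c1 gene lies over the end of ercc3 on the same strand, so reads could be divided between them. The log2 fold change of ercc3 was 0.40 in Cyp26-deficient sorted cells and 0.18 in crg mutants. Skeletal muscle markers summed to 36217 normalized counts in Cyp26-deficient cells, 23684 in their WT control and 45688 in the WT control for Hdac1. Their part in the values of cyp24a1 and cyp27c1 was not tested.

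**Figure D4:**
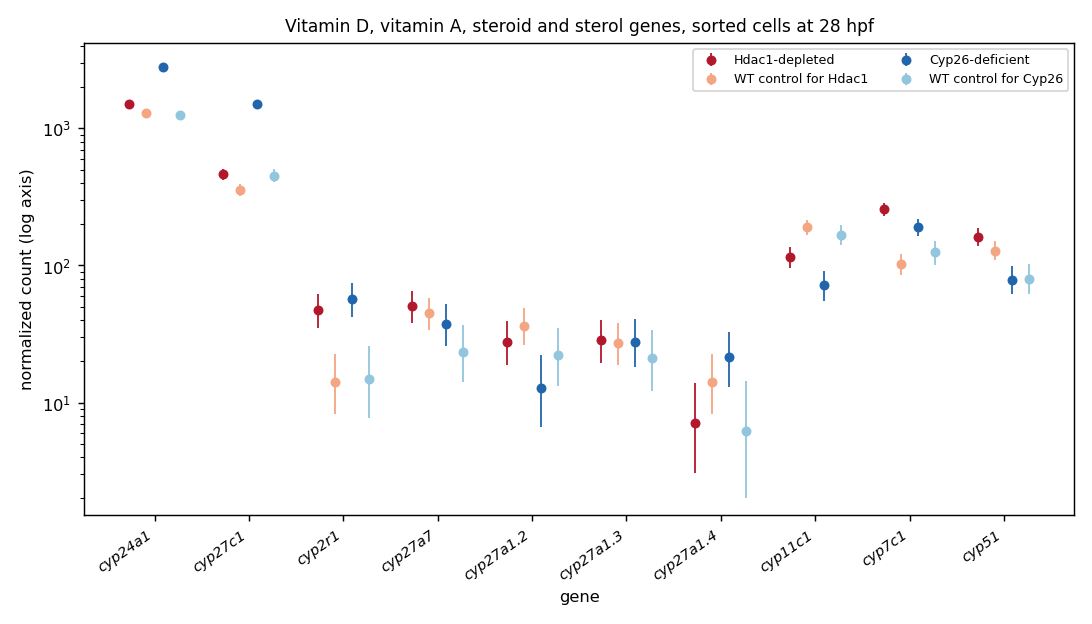
Normalized counts on a log axis of 10 P450 genes in the 4 sorted-cell libraries, with 95% exact Poisson intervals of each count as bars and each deficiency left of its WT control. In Cyp26-deficient cells cyp24a1 and cyp27c1 stand above the other 3 libraries, and cyp2r1 is above both WT controls in both deficiencies.

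Family 1, which includes the targets of the aryl hydrocarbon receptor that oxidize polycyclic compounds, had none of its 3 genes called in whole embryos. In sorted cells cyp1b1 had 122.5 normalized counts after Hdac1 depletion against 42.2, a fold of 2.90 (2.09 to 4.09) with all 7 exons higher, and 0.67 on the log2 scale with the other WT control, which had 76.5. The gene cyp1a was higher in Cyp26-deficient cells on 16 against 4 counts, and its log2 fold change was 0.11 with the other control. The gene cyp1d1 had 205 to 413.4 normalized counts in the sorted libraries and was called in neither comparison. Of the aryl hydrocarbon receptor pathway list, 0 genes were higher and 1 lower of 10 in crg mutants (median 0.004), 0 and 0 of 10 in Cyp26-deficient embryos (0.12), and 0 and 2 of 9 in Hdac1-depleted (-0.32) and in Cyp26-deficient cells (0.04). Both Cyp26 medians turned with the other WT control, to -0.16 in embryos and -0.12 in cells, and the crg median moved to 0.52.

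The array with the most counts was that of the fish subfamily cyp2aa, which with CYP2D6 (2 of 9) makes 9 genes between 42822579 and 43024136 on chromosome 23. Their substrates in the embryo are not established. Summed over the array, whole embryos had 5171 normalized counts in crg mutants against 3699.8 in WT siblings, and 4188 in Cyp26-deficient embryos against 1835 in WT embryos. The WT control for Cyp26 was thus far under the other 3 libraries. The summed fold was 2.28 (2.18 to 2.39) in Cyp26 deficiency with its own control and 1.13 (1.08 to 1.19) with the other, and 1.398 (1.32 to 1.48) and 2.82 (2.68 to 2.97) in crg mutants.

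Within the array, cyp2aa8 and cyp2aa9 were higher in both deficiencies. The level of cyp2aa8 was 1377 normalized counts in crg mutants against 563.8, a fold of 2.44 (2.15 to 2.78), and 1215 in Cyp26-deficient embryos against 398.3, a fold of 3.05 (2.77 to 3.36). For cyp2aa9 the levels were 837.6 against 417.1, a fold of 2.01 (1.72 to 2.35), and 1071 against 329.4, a fold of 3.25 (2.93 to 3.62). All 9 exons of both genes went the same way in both comparisons. Both deficiencies lay above both WT libraries, and the 4 calls held with the other control, at log2 fold changes of 1.11 to 1.79.

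No other gene of the array was called higher in both comparisons, although 8 of the 9 lay above 0 on the log2 scale in each. With the other WT control, cyp2aa1, cyp2aa2, cyp2aa3, cyp2aa4 and CYP2D6 (2 of 9) lay below it in Cyp26-deficient embryos. There cyp2aa7, cyp2aa8 and cyp2aa9 stayed above. The gene cyp2aa12 turned, with 131.0 normalized counts in Cyp26-deficient embryos against 136.4 in their own control and 39.4 in the other. The gene cyp2aa1 was 3.27-fold higher (2.57 to 4.19) in Cyp26-deficient embryos and -0.21 on the log2 scale with the other WT control, and cyp2aa7 was 2.33-fold higher (1.84 to 2.99) and 0.49 with the other control. The gene cyp2aa3 had 1062 normalized counts in crg mutants against 1255 in WT siblings, and 552.7 in Cyp26-deficient against 282.1 in WT embryos, so that both libraries of the crg pair lay above both of the Cyp26 pair. Tandem copies share sequence, so reads could be placed on the wrong copy, and CYP2D6 (2 of 9) and cyp2aa7 overlap on the same strand.

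In sorted cells the array had 806.6 normalized counts after Hdac1 depletion against 782.1, and 1121 in Cyp26 deficiency against 809.5, a fold of 1.39 (1.26 to 1.53) that was 1.43 (1.31 to 1.57) with the other control. In Cyp26-deficient cells 4 of its genes were called higher, CYP2D6 (2 of 9), cyp2aa3, cyp2aa4 (111.0 against 54.3) and cyp2aa7 (80.0 against 34.6), of which cyp2aa3, with 94.96 against 29.6 and a fold of 3.21 (2.02 to 5.26), held with the other control at 1.02. The calls of cyp2aa4 and cyp2aa7 did not, at 0.49 and 0.68. The largest value, a fold of 16.0 (4.13 to 137.0) for CYP2D6 (2 of 9), rests on a WT control with 2 counts beside 37. The other WT control had 41 counts, and the log2 fold change was 0.21 there. After Hdac1 depletion cyp2aa7 was lower, at 18.6 against 49.6, and -0.86 on the log2 scale with the other control.

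The 8 genes of the cyp2k array on chromosome 3, between 12440711 and 12556748, were higher in sum after Hdac1 depletion. They had 495.2 normalized counts against 204.2 in WT cells, a fold of 2.42 (2.08 to 2.83), and 2.20 (1.86 to 2.62) with the other WT control. Most of this came from cyp2k16, with 213.9 against 62.0, a fold of 3.45 (2.65 to 4.53), and cyp2k8, with 198.8 against 76.9, a fold of 2.59 (2.02 to 3.33). With the other control cyp2k16 remained higher, at 1.81, and cyp2k8 was under the limit, at 0.80. In Cyp26-deficient cells the sum was 258.2 against 224.6, within counting error, and cyp2k18 and cyp2k19 were lower on 9 against 20 and 4 against 9 counts. In crg mutants cyp2k17 and cyp2k19 were lower, each on 3 counts against 12 and 10 in WT siblings. With the other WT control cyp2k17 lost its call, at -0.74, and cyp2k19 kept it, at -1.72 in crg mutants and -1.87 in Cyp26-deficient cells, as did cyp2k18 at -1.50. In Cyp26-deficient cells, however, cyp2k19 was not among the genes for which both intervals excluded no change.

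**Figure D5:**
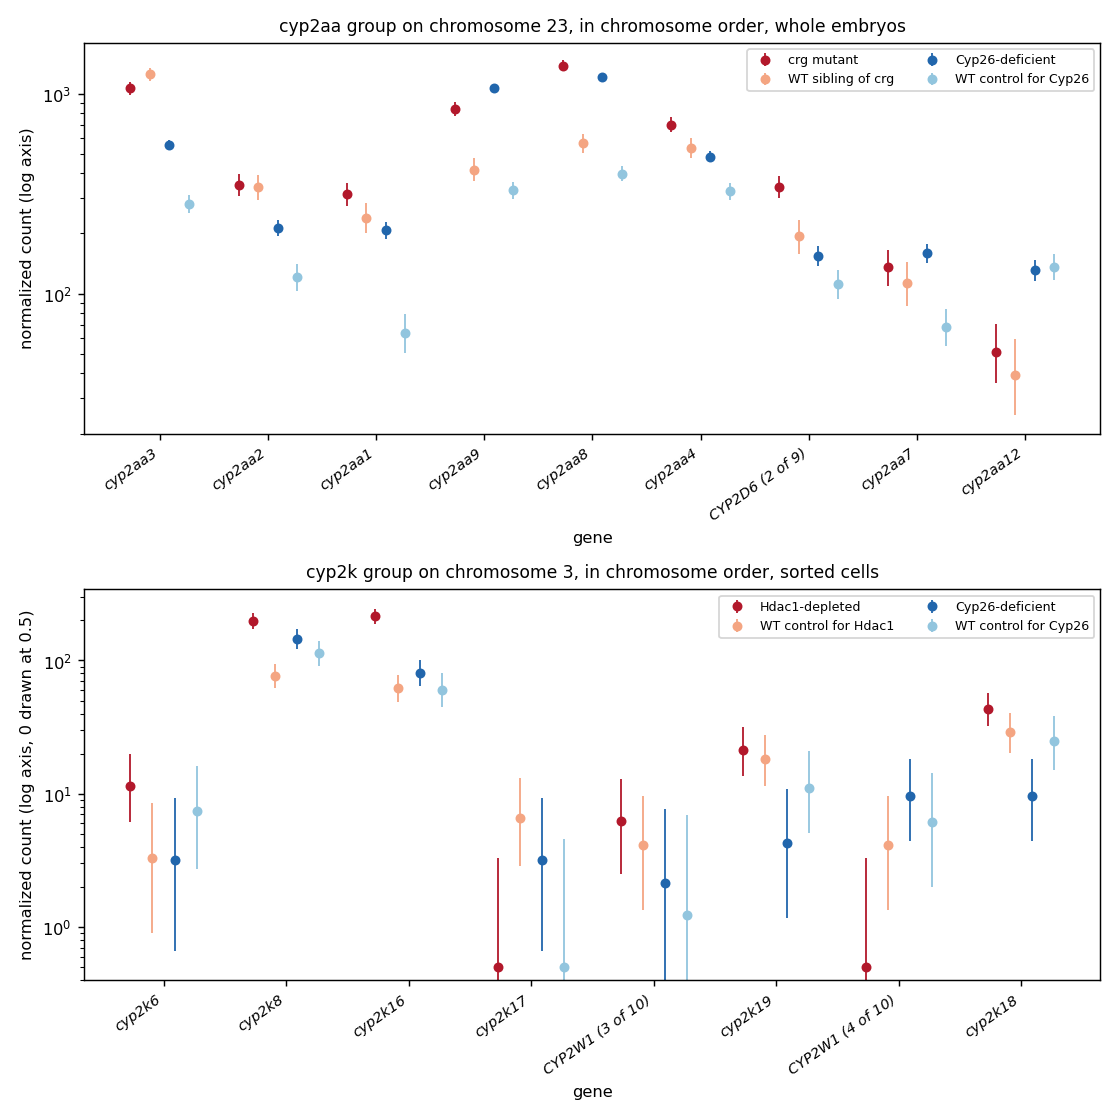
Normalized counts on a log axis of the cyp2aa array in whole embryos (upper panel) and the cyp2k array in sorted cells (lower panel), genes in chromosome order, with 95% exact Poisson intervals of each count and each deficiency left of its WT control. For cyp2aa9 and cyp2aa8 both deficiencies lie above both WT controls, and for cyp2k8 and cyp2k16 Hdac1-depleted cells lie above the other 3 libraries.

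Other family 2 genes were higher after Hdac1 depletion. The largest difference was that of cyp2ae1, on chromosome 23 from 42649986 to 42663578, with 386.0 normalized counts against 72.8, a fold of 5.31 (4.21 to 6.75) with all 9 exons higher. The WT control for Cyp26 had 37.0, and the log2 fold change was 3.35 there. The gene cyp2p10, in an array of 11 genes on chromosome 20, had 130.4 against 43.8, a fold of 2.98 (2.16 to 4.16), and 1.46 with the other control. The array as a whole was 1.07-fold (0.972 to 1.18) of its WT level.

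Beside these values, melanophore markers summed to 6804 normalized counts in Hdac1-depleted cells against 1741, and hepatocyte markers to 3949 against 1515. Most of the hepatocyte sum was tfa, with 4049 counts against 1433 before division by the size factors. Of the 7 hepatocyte markers tested, 1 was higher and 2 lower, with fabp10a at 3 against 2 counts and fga at 0 in both. Whether these cells contributed the P450 counts was not tested.

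In the array on chromosome 20, cyp2p8 was higher in both whole-embryo comparisons. It had 18 counts against 6 in crg mutants, where the interval of the fold of 2.37, 0.90 to 7.29, includes no change, and 53 against 10 in Cyp26-deficient embryos, a fold of 3.45 (1.73 to 7.60). Both calls held with the other WT control, at 1.59 and 1.24. In Cyp26-deficient embryos cyp2p6 was also higher, 2.11-fold (1.61 to 2.79) and 0.49 on the log2 scale with the other control. In sorted cells cyp2p9 was lower in Cyp26 deficiency on 5 against 21 counts, with 8 in the other control and a log2 fold change of -0.27 there. After Hdac1 depletion cyp2ad6 was higher on 16 against 7 counts and cyp2ad2 lower on 2 against 10, and in Cyp26-deficient cells cyp2j20 was higher on 6 against 2. All 3 intervals include no change, and with the other WT control cyp2ad6 and cyp2j20 turned, to -1.62 and -1.55, while cyp2ad2 was at -4.22.

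Most calls of the cyp2x genes on chromosome 25 rest on few counts. In crg mutants cyp2x6 had 11 against 3, with an interval that includes no change, and cyp2x9 had 4 against 14. In Cyp26-deficient cells cyp2x7 was higher, with 132.3 normalized counts against 64.2, a fold of 2.06 (1.48 to 2.91). There cyp2x8, which overlaps it, was lower on 11 against 20 counts, with an interval that includes no change. Neither call held with the other WT control, at log2 fold changes of 0.56 for cyp2x7 and -0.24 for cyp2x8, and in crg mutants cyp2x6 turned to -2.29 while cyp2x9 stayed lower at -1.31. No cyp2x gene was called in Cyp26-deficient embryos or in Hdac1-depleted cells, but the 4 of chromosome 25 together had 502.8 normalized counts in Cyp26-deficient embryos against 864.9 in WT embryos, a ratio of 0.581 (0.533 to 0.634), and 1.58 (1.34 to 1.86) with the other control.

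Family 3, the fish relatives of the main drug-oxidizing enzymes of the human liver, held opposite differences of cyp3c1l2 on chromosome 3. It had 72 counts in Cyp26-deficient whole embryos and 8 in WT embryos, a fold of 5.85 (2.82 to 14.1), and 9 in crg mutants against 4 in WT siblings. In sorted cells it had 7 counts after Hdac1 depletion against 65, a ratio of 0.116 (0.0447 to 0.252), and 24 in both libraries of the Cyp26 pair. Both calls held with the other WT control, at 2.19 and -2.09. The gene cyp3a65 was lower on 7 against 21 counts after Hdac1 depletion, and at -0.42 with the other WT control. The gene cyp3c4 was lower on 5 against 9 counts in crg mutants, and at -2.12 with the other WT control. Both had few counts, and the interval of cyp3c4 with its own control includes no change. The gene cyp3c1 was called in none.

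Of the fatty acid genes of family 4, cyp4f3 and cyp4t8 were called. The gene cyp4f3, named after the human enzyme that inactivates leukotriene B4, had 42 counts in Cyp26-deficient embryos and 11 in WT embryos, a fold of 2.48 (1.26 to 5.35), with a log2 fold change of 1.44 with the other WT control. In sorted cells it had 22 in Cyp26 deficiency against 41, a ratio of 0.464 (0.263 to 0.797), and 5 after Hdac1 depletion against 38, a ratio of 0.141 (0.0434 to 0.359). The Hdac1-depleted level was under the other 3 libraries, and its log2 fold change was -3.25 with the other control, against -0.41 in Cyp26-deficient cells.

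The gene cyp4t8 was higher in Cyp26 deficiency in both tables, at 35.8 normalized counts against 13.2 in whole embryos, a fold of 2.72 (1.58 to 4.92), and at 346.8 against 155.5 in sorted cells, a fold of 2.23 (1.81 to 2.76). With the other WT control both were under the limit, at 0.31 and 0.81. It overlaps arnt on the same strand, whose log2 fold changes were 0.52 and 0.04.

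The gene cyp2u1, whose mammalian product hydroxylates long-chain fatty acids, was higher in both Hdac1 comparisons. It had 104.5 normalized counts in crg mutants against 26.8, a fold of 3.89 (2.21 to 7.30), and 27 counts in Hdac1-depleted cells against 7, a fold of 4.14 (1.76 to 11.3). The log2 fold changes were 2.82 and 1.04 with the other control, where the interval in sorted cells, 0.985 to 5.21, includes no change. It was the 1 gene among the 52 tested in both tables that was higher in both, and 0 were lower in both. The same overlap over all genes was not computed, so these counts are not read as a result about P450 genes. In Cyp26-deficient cells cyp2u1 was lower on 3 against 9 counts, and the interval of its ratio of 0.288, 0.0502 to 1.15, includes no change. The log2 fold change was -0.69 with the other control.

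The orphan gene cyp20a1, among the most abundant in both tables, was called in none. In whole embryos the fold of crg mutants was 1.14 (1.02 to 1.27) and that of Cyp26 deficiency 1.28 (1.17 to 1.39). In sorted cells Hdac1 depletion gave 1.32 (1.16 to 1.52) and Cyp26 deficiency 1.11 (0.937 to 1.32). The most abundant whole-embryo gene, cyp2y3, had a ratio of 0.61 (0.562 to 0.662) in crg mutants, and of 1.21 (1.14 to 1.29) when Cyp26 was lacking. Both turned with the other WT control, to log2 fold changes of 0.32 and -0.75, as did the Cyp26 value of cyp20a1 in whole embryos, to -0.33.

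Partner proteins of the P450s were taken from a list. Cytochrome P450 reductase por, the electron donor of the microsomal enzymes, had log2 fold changes of -0.34, -0.21, -0.16 and 0.08 in crg mutants, Cyp26-deficient embryos, Hdac1-depleted cells and Cyp26-deficient cells. Of the electron donor and haem supply list, 1 was higher and 1 lower of 16 in crg mutants (median -0.13), 2 and 0 of 16 in Cyp26-deficient embryos (-0.04), 2 and 0 of 15 in Hdac1-depleted cells (0.42) and 3 and 0 of 15 in Cyp26-deficient cells (0.04). The 2 in Hdac1-depleted cells were cyb5a (1.35), the cytochrome b5 that assists many P450s, and pgrmc2 (1.13).

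Of the nuclear receptors for foreign compounds and bile acids, 1 was higher and 1 lower of 14 in crg mutants (median -0.22), 1 and 0 of 14 in Cyp26-deficient embryos (0.17), and 1 and 1 of 11 in each sorted comparison (0.05 and 0.08). Of the conjugating enzymes and transporters, 4 were higher and 5 lower of 15 in Hdac1-depleted cells (median 0.19). There the glutathione transferase gstp1 had 4080 counts against 922. In Cyp26-deficient cells 2 were higher and 3 lower of 15 (0.13), in crg mutants 0 and 5 of 16 (-0.49) and in Cyp26-deficient embryos 0 and 0 of 16 (-0.16). With the other WT control the crg medians of the donor, receptor and conjugation lists turned, to 0.31, 0.27 and 0.23, and so did the receptor median in Cyp26-deficient embryos (-0.29) and the donor and conjugation medians in Cyp26-deficient cells (-0.29 and -0.53).

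The P450 genes without a cyp symbol were ptgis, the prostacyclin synthase, and tbxas1, the thromboxane synthase. In crg mutants 1 was higher and 0 lower of 2 (median 0.35), with 185 counts of tbxas1 against 63 (log2 fold change 1.21), and 1.49 with the other WT control. After Hdac1 depletion 1 was higher and 1 lower (0.06), with tbxas1 at 1.22 and ptgis at -1.10. Neither was called in Cyp26-deficient embryos (-0.22) or cells (0.22).

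Across the whole-embryo comparisons, cyp2aa8, cyp2aa9 and cyp2p8 were higher in both, cyp2r1 was lower in both, and cyp17a2 and cyp21a2 were lower in crg mutants and higher in Cyp26 deficiency. Across the sorted-cell comparisons, cyp2r1 was higher in both, and cyp46a1 and cyp4f3 were lower in both. There cyp2u1 and cyp46a4 were higher after Hdac1 depletion and lower in Cyp26 deficiency, and cyp2aa7 was the reverse. With the other WT control, no sorted-cell call of cyp46a4 or cyp2aa7 held. The calls of cyp46a1, cyp4f3 and cyp2u1 in Cyp26-deficient cells did not hold either. In crg mutants cyp17a2 and cyp21a2 had 1 count each, and the intervals of cyp21a2 and cyp2p8 there include no change.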

How the data were processed

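RNA from 8 libraries, 1 per condition, was sequenced from whole embryos (single-end, stranded) and from sorted cells (amplified with a single cell kit, paired-end). Expected counts per gene and exon, not normalized, were deposited by the authors in 2 tables, after alignment to Zv9 (danRer7) in Strand-NGS. The whole-embryo table names its values tersely, and plus was read as the WT siblings, minus as the crg mutants and AC as Cyp26 deficiency; the use of hdac1 exon 7 in the report bears on the crg reading. The version of Strand-NGS is not given in the sources used here, and DESeq is named in the submitters' processing notes. The expected counts were rounded and scaled, each table alone, with the median-of-ratios factors of DESeq2 1.42.0 (R 4.3.3). A pseudocount of 1, a minimum mean of 10 normalized counts and a limit of 2-fold gave the calls, and intervals came from scipy 1.17.1. A library at 0 was set at 3 counts to give a fold, which is not a limit of counting error.

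The P450 genes and the gene lists were chosen with earlier results of these data known. The pathway lists were steroid synthesis, cholesterol synthesis, electron donors and haem supply, the aryl hydrocarbon receptor, nuclear receptors, conjugation and transport, and P450 genes without a cyp symbol. Marker lists were of hepatocytes, intestine, cardiomyocytes, erythrocytes, lens, melanophores, skeletal muscle and neurons. Genes named with values were those called in a comparison, those with a known role in steroid, sterol, bile acid, vitamin or foreign compound metabolism, and the highest of a family per kb of exon. The calculations were tested on simulated data. Alternatives were edgeR's TMM (edgeR 4.0.16), total counts, pseudocounts of 0.1 and 10, no filter, a mean of at least 50, the other WT control, a nearer interval limit past 2-fold, more than 4-fold, and unrounded expected counts.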

Additional observations from a re-analysis of the deposited data

Results flagged for a closer look

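The vitamin D 25-hydroxylase gene cyp2r1 stood apart because whole embryos and sorted cells differed in opposite directions. Its log2 fold change was -4.16 in crg mutants and 1.67 in Hdac1-depleted sorted cells, and with Cyp26 deficiency it was 1.86 in sorted cells and -1.09 in whole embryos. The leukotriene gene cyp4f3 differed likewise, with Cyp26 deficiency alone, at -1.08 in sorted cells and 1.22 in whole embryos. Its call in sorted cells did not hold with the other WT control. With 1 library per condition the difference between whole embryos and sorted cells was not tested, and the tissue, the stage and the library preparation cannot be told apart. For Hdac1, its loss by mutation in whole embryos and by depletion in sorted cells cannot be told apart from these either.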

How the results depend on the processing

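No paired analysis was possible because each condition had 1 library, and no library could be left out. Of 69 single gene values followed, none lost its 2-fold call with TMM scaling, unrounded counts or a pseudocount of 0.1, 27 did with a pseudocount of 10, 5 with total counts and 30 with the other WT control. Values outside the counting interval of the original ratio numbered 2 with a pseudocount of 10 and 3 with total counts. Total counts shifted the all-gene median to 0.17 in crg mutants and 0.22 in Cyp26-deficient embryos, with P450 medians of 0.07 and 0.62, and left 0 P450 genes lower in Cyp26-deficient embryos. The other WT control put 24 values outside that interval and turned 6: cyp19a1b to -3.005 and cyp2x6 to -2.29 in crg mutants, cyp2aa1 to -0.21 in Cyp26-deficient embryos, cyp2ad6 to -1.62 in Hdac1-depleted cells, and cyp2j20 to -1.55 and cyp39a1 to 1.68 in Cyp26-deficient cells. It gave 22 higher and 17 lower P450 genes in crg mutants, and 17 lower with a median of -0.18 in Cyp26-deficient embryos. With a pseudocount of 10 there were 2 higher and 6 lower in crg mutants, 1 lower in Cyp26-deficient embryos, and 7 higher and 4 lower in Cyp26-deficient cells. Without a filter 17 were lower in crg mutants and, among sorted cells, 14 with Hdac1 depletion and 16 with Cyp26 deficiency. A mean of at least 50 left 3 higher and 2 lower in crg mutants, 6 and 1 in Cyp26-deficient embryos, 6 and 0 with Hdac1 depletion, and 6 and 1 in Cyp26-deficient cells. With the nearer interval limit past 2-fold there were 2 higher and 4 lower in crg mutants, 6 and 0 in Cyp26-deficient embryos, 3 lower in Hdac1-depleted cells, and 5 and 0 in Cyp26-deficient cells. Past 4-fold there were 0 higher and 7 lower in crg mutants, 2 and 0 in Cyp26-deficient embryos, 1 and 2 with Hdac1 depletion, and 1 and 1 in Cyp26-deficient cells. The cause of these shifts was not tested beyond the fewer genes or stricter limits that the settings themselves bring. Genes with few counts limit most calls in crg mutants, the shallowest libraries being the crg pair.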
